A study of Rattus rattus with 24 samples.

Results

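The genes described here belong to families of chromatin regulators: histone deacetylases (Hdac), lysine demethylases (Kdm), protein methyltransferases (Kmt and Setd), Ezh and Asxl genes of the polycomb system, Smarc subunits of nucleosome remodelling complexes, Chd remodellers, DNA methyltransferases (Dnmt) and Tet enzymes. Not every member acts on chromatin, and Setd3 is known to act on actin. They were chosen by symbol, with no rule on a measured value, but with earlier results of these data known. Of the 14217 genes with a probe set of 1 symbol on the array, 72 belonged to these families, namely 10 deacetylases, 15 demethylases, 15 Kmt and Setd genes, 5 Ezh and Asxl genes, 13 Smarc genes, 8 Chd genes and 6 Dnmt and Tet genes. All 72 were tested, with no filter on low values. Each gene was read from its brightest probe set, and 35 of the 72 had more than 1. OPCs (oligodendrocyte precursor cells) were selected with A2B5 microbeads from the cortex of rat pups and expanded in PDGF, a growth factor that keeps them dividing. They were then kept in medium with vehicle (control), T3 (the active thyroid hormone) at 45 nM, quetiapine (an atypical antipsychotic) at 1 µM, or the combination of both for 48 or 96 hours, with the medium renewed at 48 hours. All 8 groups, the controls included, were in a medium whose supplement carries a little T3. RNA from 3 biological replicates in each of the 8 groups was measured on 24 Affymetrix arrays. Values are log2 expression, so a difference of 1 is a 2-fold change, and levels of different genes cannot be compared with each other because each probe set has its own brightness.

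Histone deacetylases and demethylases remove marks from histone tails that methyltransferases and acetyltransferases write, remodellers move nucleosomes with energy from ATP, and DNA methyltransferases and Tet enzymes set and remove cytosine methylation. In the oligodendrocyte lineage the class I deacetylases Hdac1 and Hdac2, the remodellers Chd7, Chd8 and Smarca4, and the maintenance methyltransferase Dnmt1 are known to be needed for precursors to expand or to become myelinating cells. T3 acts through nuclear receptors that hold corepressors with Hdac3 when no hormone is bound and exchange them for coactivators when it is.

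The arrays carried the labelled cell type together with others. Mbp, a myelin protein gene, lay between 13.91 and 14.39 and Sox10, a lineage factor, between 10.75 and 11.85 on all 24 arrays, but Gfap, which marks astrocytes, lay between 12.65 and 13.77. The T3 target gene Hr lay between 9.87 and 10.26 on the 12 arrays with T3 or the combination and between 7.06 and 7.78 on the other arrays, as their labels say. Control replicate 2 at 48 hours stood apart in the mean of 8 microglial markers (6.44, against 5.19 and 5.36 in the other 48-hour controls), so counts at 48 hours are also given without it. Replicates of a number shared a preparation of cells, by the series design, and counts are therefore also given with the replicate number as a block. Adjusted p values of single genes come from the fit without this block unless the block is named. At 48 hours that fit called 4 genes with T3, against 17 with the block, and 7 with the combination, against 31. A gene that did not pass without the block can therefore pass with it. In bulk RNA, fewer cells of a type and less RNA per cell cannot be told apart.

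Chromatin regulators were mostly lower with T3 and with the combination, and lowest with the combination at 96 hours. The combination at 96 hours was associated with 31 lower and 9 higher genes among the 72, at an adjusted p under 0.05 in limma (43.1% and 12.5%, against 15.7% lower and 13.6% higher of all probe sets tested). T3 at 96 hours gave 14 lower and 4 higher (all probe sets 6.07% and 5.64%), and quetiapine at 96 hours 2 lower and 3 higher (2.24% and 3.65%). Of all 14217 genes, each also read from its brightest probe set, 20% were lower and 15.2% higher with the combination. With T3 these shares were 8.08% and 6.58%, and with quetiapine 3.04% and 4.21%. The share of the 72 that fell was thus above that of all genes with T3 and with the combination, and near it with quetiapine. The share that rose was not above that of all genes with any treatment. The median change of the 72 genes at 96 hours was −0.19 for T3, −0.03 for quetiapine and −0.25 for the combination, where the medians of all 14217 genes lay within 0.03 of 0. For 37 of the 72 genes (51.4%) the combination at 96 hours was the group with the lowest mean, against 27.1% of all genes. With a replicate block the T3 counts at 96 hours were 26 lower and 7 higher (all probe sets 14.3% and 10.3%). Those of quetiapine were 8 and 6 (9.26% and 7.98%), and those of the combination 37 and 11 (22.1% and 18.5%). The T3 count at 96 hours fell to 11 without T3 replicate 2.

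At 48 hours fewer genes changed. T3 gave 4 lower and 0 higher (0.254% and 0.792% of all probe sets), quetiapine 0 lower and 1 higher (0.029% and 0.087%) and the combination 6 lower and 1 higher (2.87% and 2.62%). Of all 14217 genes, 0.366% were lower and 1.06% higher with T3, 0.0492% and 0.134% with quetiapine, and 4.22% and 3.12% with the combination. With a replicate block T3 gave 13 lower and 4 higher (5.51% and 4.57%), quetiapine 2 and 1 (1.88% and 1.7%) and the combination 23 and 8 (12.1% and 9.63%). Without control replicate 2 the totals were 1, 0 and 6 genes. The T3 total was also 1 without T3 replicate 2 or 3 or control replicate 3 and 2 without control replicate 1, and the quetiapine total was 0 without quetiapine replicate 2 or 3 or any 1 of the controls. The 4 genes that fell with T3 at 48 hours, Smarca1, Asxl3, Kdm2b and Ezh2, were all among the 14 that fell at 96 hours. Of the 6 that fell with the combination at 48 hours, 5 were also among the 31 at 96 hours, and the exception was Hdac5. In total, 42 of the 72 genes passed the test in at least 1 of the 6 comparisons with control (58.3%, against 38% of all 14217 genes) and 30 in none. Under a replicate block 55 did (76.4% against 57.4%) and 17 did not. As a set the 72 genes had a higher signal, with a median level of 8.71 against 7.74 for all 14217 genes. The part of signal level in the shares called was not tested. The 3 comparisons at each time share their control arrays.

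**Figure D1:**
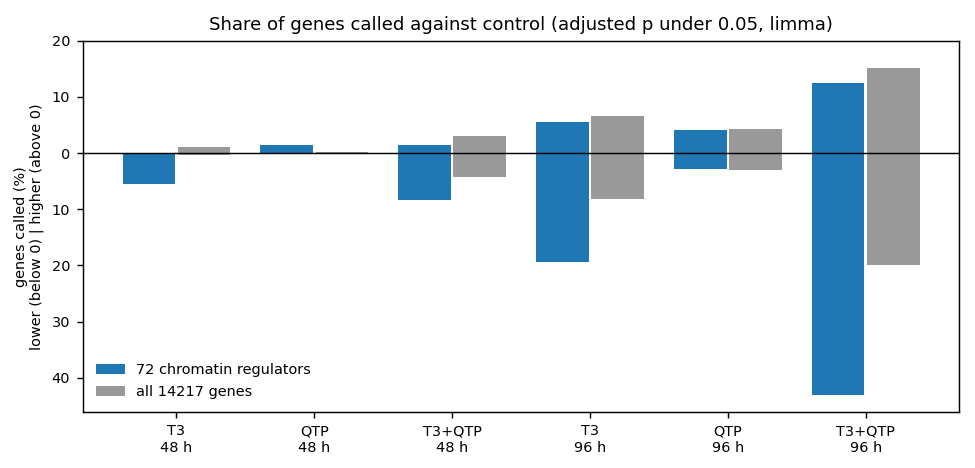
Share of genes (%) called higher (above 0) or lower (below 0) than control at an adjusted p under 0.05, for the 72 chromatin regulators (blue) and all 14217 genes (grey); QTP is quetiapine. With the combination at 96 hours, 43.1% of the chromatin regulators were lower, the longest bar of the plot.

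**Figure D2:**
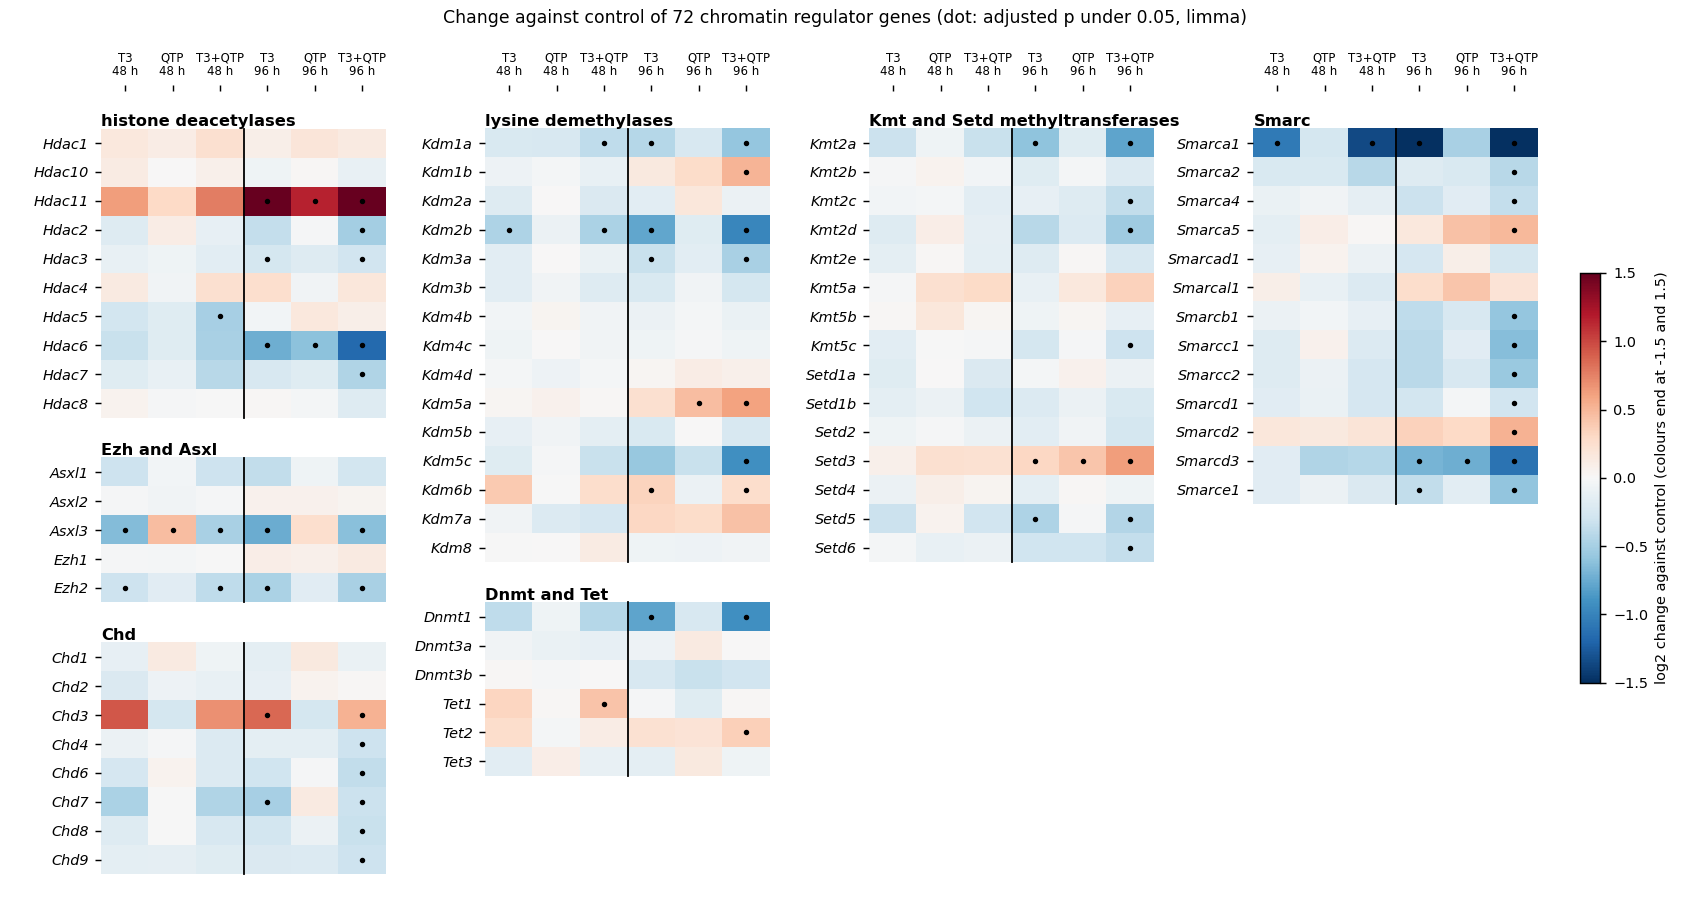
Log2 change against control of each of the 72 genes in the 6 comparisons, by family, from blue (lower) to red (higher) with colours that end at 1.5 either way, and a black dot where the adjusted p was under 0.05; QTP is quetiapine. Blue rows outnumber red ones in the combination at 96 hours, where 51 of the 72 genes lay below control, and Hdac11 is the darkest red row.

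The counts by family and by list of partner genes that follow are read against all 14217 genes, of which 20% were lower and 15.2% higher with the combination at 96 hours, 8.08% and 6.58% with T3, and 3.04% and 4.21% with quetiapine. Among the 10 histone deacetylases, Hdac11 rose and 4 others fell with the combination at 96 hours. Hdac11, the sole class IV deacetylase, had levels of 8.29, 8.07 and 8.27 in control replicates 1 to 3 at 96 hours, 10.06, 9.89 and 10.08 with T3, 9.94, 9.08 and 9.07 with quetiapine, and 10.66, 10.59 and 10.58 with the combination. Every treated array lay above every control array, and every combination array above every array with a single compound. The changes were 1.80 ± 0.19 (SE, limma adjusted p = 0.000248, n = 3 against 3) with T3, 1.15 ± 0.19 (adjusted p = 0.00578) with quetiapine and 2.40 ± 0.19 (adjusted p = 9.97e-06) with the combination, which is 5.28-fold. At 48 hours the controls were close together (8.19, 8.19 and 8.27) while the treated arrays spread by replicate. Replicate 3 was the highest with T3 (9.55, against 8.38 and 8.62) and with the combination (9.93, against 8.31 and 8.71), and none of the 48-hour changes passed the test (combination 0.77, adjusted p = 0.317, and 0.0276 with a replicate block).

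Hdac6, a mainly cytoplasmic enzyme that deacetylates tubulin, moved the other way. At 96 hours its control levels were 8.70, 8.41 and 8.77, those with T3 7.94, 7.84 and 7.91, those with quetiapine 7.87, 8.05 and 8.11, and those with the combination 7.59, 7.22 and 7.57. The combination arrays lay below all single-compound arrays, which in turn lay below all controls. Hdac6 fell by 0.73 ± 0.12 with T3 (adjusted p = 0.0036), by 0.62 ± 0.12 with quetiapine (adjusted p = 0.0141) and by 1.16 ± 0.12 with the combination (adjusted p = 6.3e-05). The quetiapine call was lost without quetiapine replicate 1 or control replicate 3, with an adjusted p of at most 0.0637.

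The class I deacetylases moved less. Hdac2, a catalytic subunit of the Sin3, NuRD and CoREST complexes, fell by 0.52 ± 0.12 with the combination at 96 hours (adjusted p = 0.00825), from 11.87, 11.72 and 11.87 to 11.59, 11.17 and 11.16. With T3 its change of −0.35 had an adjusted p of 0.0883 (0.00999 with a replicate block). Its close relative Hdac1 had levels of 10.38, 10.01 and 9.83 in the controls and 10.48, 10.14 and 10.02 with the combination, which overlap (0.14 ± 0.18, adjusted p = 0.613). Hdac3, the deacetylase of the NCoR and SMRT corepressors, fell by 0.26 ± 0.07 with T3 (adjusted p = 0.0249, at most 0.103 without T3 replicate 2 or 3 or control replicate 3) and by 0.28 ± 0.07 with the combination (adjusted p = 0.00756). Hdac7, of class IIa, fell by 0.45 with the combination (adjusted p = 0.00334). Hdac5, a class IIa enzyme that shuttles between nucleus and cytoplasm, fell at 48 hours with the combination, from 9.39, 9.41 and 9.50 to 9.02, 8.92 and 8.86 (−0.50 ± 0.08, adjusted p = 0.00495), and at 96 hours its change was 0.09 (adjusted p = 0.64). A second Hdac5 probe set changed by 0.03 at 48 hours and did not pass, and the mean of both lost the call (−0.23, adjusted p = 0.0782). Of 15 measured corepressor partners of the deacetylases, 5 fell and 2 rose with the combination at 96 hours, among them Mta1 of NuRD (−0.72 ± 0.16, adjusted p = 0.00653), Mta3 (0.90) and Sirt2, a tubulin deacetylase of myelinating cells (0.36).

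**Figure D3:**
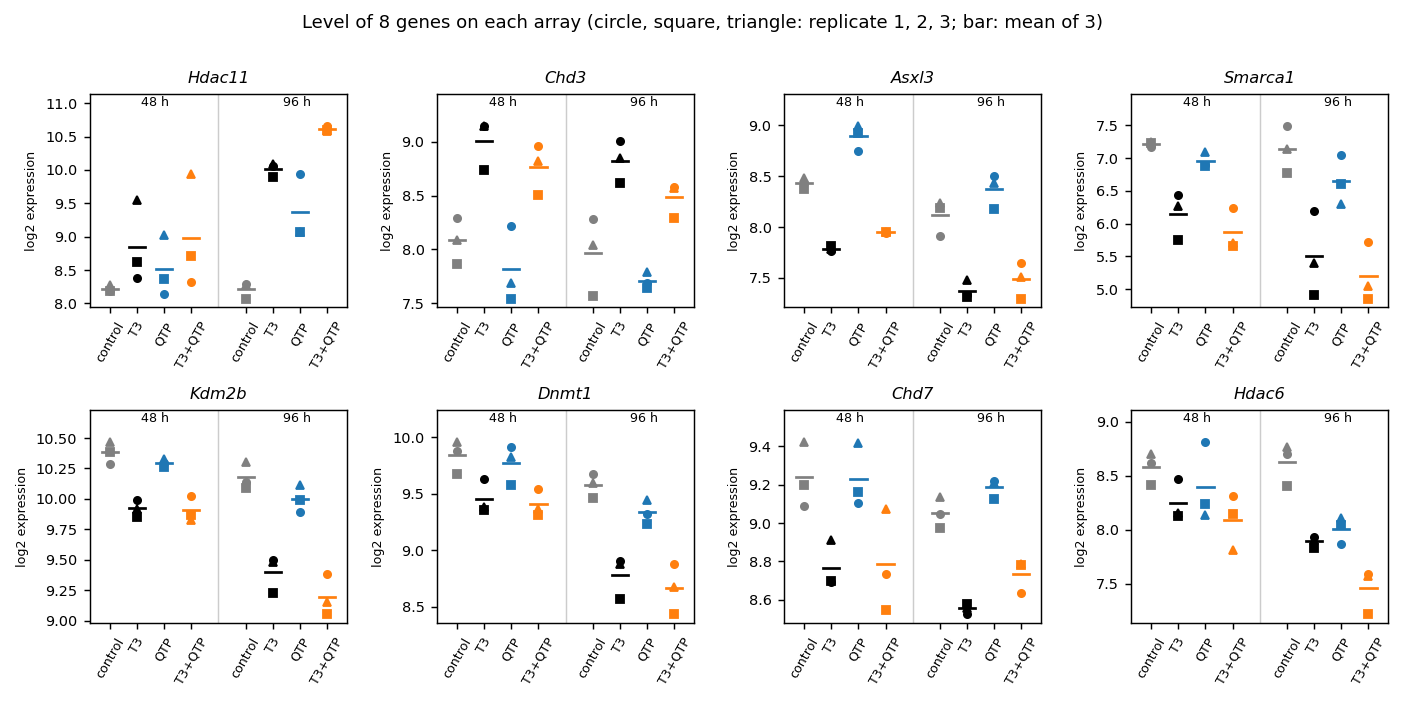
Log2 expression of 8 genes on each of the 24 arrays, with circle, square and triangle for replicates 1, 2 and 3 and a bar for the mean of 3; QTP is quetiapine. Hdac11 climbs to between 10.58 and 10.66 with the combination at 96 hours, Chd3 is high and Asxl3 low on the arrays with T3 or the combination and not on those with quetiapine alone, and Smarca1, Kdm2b and Dnmt1 step down with T3 and the combination.

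Among the 15 lysine demethylases, 4 fell and 3 rose with the combination at 96 hours, 26.7% and 20%, near the 20% and 15.2% of all genes. Kdm2b, which brings a polycomb complex to unmethylated CpG islands, had 96-hour levels of 10.14, 10.09 and 10.30 in controls, 9.50, 9.23 and 9.48 with T3, 9.89, 9.99 and 10.12 with quetiapine, and 9.39, 9.05 and 9.15 with the combination. The arrays with T3 in them, alone or in the combination, lay below all others. Kdm2b fell by 0.77 ± 0.11 with T3 (adjusted p = 0.00167) and by 0.98 ± 0.11 with the combination (adjusted p = 0.000105), and its change with quetiapine was −0.18 (adjusted p = 0.431). It was already lower at 48 hours with T3 (−0.46, adjusted p = 0.0167, at most 0.0892 without T3 replicate 2 or 3 or control replicate 2 or 3) and with the combination (−0.48, adjusted p = 0.00574).

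Kdm1a (LSD1), a flavin-dependent demethylase of the CoREST complex, fell, and its paralog Kdm1b rose. Kdm1a had control levels of 10.65, 10.44 and 10.42 at 96 hours and combination levels of 10.05, 9.82 and 9.89, with no overlap (−0.58 ± 0.09, adjusted p = 0.000687). With T3 it fell by 0.42 (adjusted p = 0.0128, at most 0.0556 without T3 replicate 2 or 3), and with the combination at 48 hours by 0.38 (adjusted p = 0.00386). Kdm1b had control levels of 8.47, 8.34 and 8.36 at 96 hours and combination levels of 8.87, 9.04 and 8.79, again apart (0.51 ± 0.08, adjusted p = 0.00081). At 48 hours its arrays overlapped (−0.11, adjusted p = 0.642).

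Kdm5a, which removes methyl groups found at active promoters, was one of 3 genes to rise with quetiapine at 96 hours. It went from 9.82, 9.70 and 10.04 in controls to 10.40, 10.23 and 10.33 with quetiapine and 10.54, 10.40 and 10.44 with the combination. These are changes of 0.47 ± 0.10 (adjusted p = 0.0192, at most 0.0767 without quetiapine replicate 1 or 3 or control replicate 2) and 0.61 ± 0.10 (adjusted p = 0.000937). All 4 of its probe sets rose with the combination, by 0.59 to 0.98. Its paralog Kdm5c fell with the combination on its brightest probe set (8.36, 7.89 and 8.40 to 7.43, 6.98 and 7.47, −0.92 ± 0.18, adjusted p = 0.00266), but the other Kdm5c probe sets changed by 0.04 and −0.07, and the mean of all fell by 0.32 (adjusted p = 0.048). Kdm6b, which removes the methyl mark of polycomb, was higher with T3 at 96 hours (7.99, 7.77 and 7.95 against 7.55, 7.49 and 7.67, 0.33 ± 0.08, adjusted p = 0.0257). That call was lost without T3 replicate 1 or 3 or control replicate 1 or 2, with an adjusted p of at most 0.087.

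Of the 15 Kmt and Setd genes, 6 fell and 1 rose with the combination at 96 hours. The gene that rose, Setd3, encodes a methyltransferase known to act on actin. Its 96-hour levels were 9.19, 8.99 and 9.13 in controls, 9.36, 9.42 and 9.46 with T3, 9.51, 9.50 and 9.55 with quetiapine, and 9.65, 9.79 and 9.74 with the combination. The 4 groups did not overlap and stood in that order. The changes were 0.31 ± 0.07 with T3 (adjusted p = 0.02, at most 0.0725 without T3 replicate 2 or 3 or control replicate 2 or 3), 0.42 ± 0.07 with quetiapine (adjusted p = 0.00718) and 0.62 ± 0.07 with the combination (adjusted p = 0.000123), and a second Setd3 probe set rose by 0.50 with the combination. Kmt2a, which writes a methyl mark of active promoters and was named after its values were seen, fell by 0.79 ± 0.11 with the combination (adjusted p = 0.000418) on its brightest probe set, while its 3 other probe sets changed by −0.16, −0.06 and 0.25 and the mean of all by −0.19 (adjusted p = 0.0474). The remaining 5 that fell did so by 0.31 to 0.53.

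Of 16 measured histone methyltransferase genes outside these families, 13 fell and 0 rose with the combination at 96 hours (81.2% lower, against 20% of all genes). With T3 6 fell and 0 rose (37.5% against 8.08%), and with quetiapine 2 and 0 (12.5% against 3.04%). Ehmt2 (G9a), which writes a repressive mark and is known to be active in differentiating oligodendrocytes, fell by 0.49 with T3 (adjusted p = 0.0166), by 0.48 with quetiapine (adjusted p = 0.0276) and by 0.99 with the combination (adjusted p = 8.61e-05). Ash1l fell by 0.47, 0.40 and 0.84 in the same order, and Prdm16 changed by −1.93 ± 0.50 with the combination (adjusted p = 0.0138).

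In the polycomb system, Ezh2 and Asxl3 fell with T3 and with the combination at both times. Ezh2, the catalytic subunit that writes the polycomb methyl mark, had 96-hour levels of 9.44, 9.24 and 9.37 in controls, 9.03, 8.75 and 8.87 with T3, 9.36, 9.04 and 9.14 with quetiapine, and 9.14, 8.75 and 8.73 with the combination. T3 and combination arrays lay below all controls, and quetiapine arrays overlapped with the controls. At 96 hours Ezh2 fell by 0.47 ± 0.13 with T3 (adjusted p = 0.0361) and by 0.48 ± 0.13 with the combination (adjusted p = 0.0153). The changes at 48 hours were −0.31 for T3 (adjusted p = 0.0489) and −0.39 for the combination (adjusted p = 0.00695). One of 3 Ezh2 probe sets disagreed (0.21 with the combination at 96 hours, where the other called one fell by 0.46), and with the mean of the 3 no Ezh2 call remained (adjusted p from 0.168 to 0.535). Leaving out 1 array also ended the T3 calls (without any of the 6 arrays at 48 hours, at most 0.209, and without T3 replicate 2 or 3 or control replicate 1 or 3 at 96 hours, at most 0.143) and the 96-hour combination call (without combination replicate 2 or 3 or control replicate 1, at most 0.0645).

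Asxl3, a partner of the deubiquitinase Bap1, went in opposite directions with the single compounds at 48 hours. Its levels were 8.44, 8.38 and 8.48 in controls, 7.76, 7.81 and 7.79 with T3, 8.75, 8.93 and 9.00 with quetiapine, and 7.94, 7.95 and 7.95 with the combination. All 4 groups were apart, with quetiapine above control and T3 and the combination below. The changes were −0.65 ± 0.07 with T3 (adjusted p = 0.00124), 0.46 ± 0.07 with quetiapine (adjusted p = 0.039) and −0.49 ± 0.07 with the combination (adjusted p = 0.00346). At 96 hours the falls with T3 (−0.74, adjusted p = 0.00346) and the combination (−0.63, adjusted p = 0.00297) were of similar size, and the quetiapine change of 0.26 did not pass (adjusted p = 0.275). The quetiapine call at 48 hours was lost without quetiapine replicate 2 or 3 or any 1 of the controls (adjusted p at most 0.21) and with the mean of its probe sets (0.33, adjusted p = 0.287). Of 15 measured polycomb partners, 6 fell and 0 rose with the combination at 96 hours and 3 and 0 with T3. Cbx2, a reader of the polycomb mark, fell by 0.83 with the combination (adjusted p = 0.000755) and by 0.46 with T3 at 48 hours (adjusted p = 0.0237), and Phc1 fell by 0.77 with the combination (adjusted p = 0.00036).

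Of the 13 Smarc genes, 9 fell and 2 rose with the combination at 96 hours, the most calls of the 7 families in that comparison. With T3 3 fell and with quetiapine 1, and there the demethylases (4 calls with T3) and the deacetylases (2 with quetiapine) had more. Smarca1 (SNF2L), an ATPase of the ISWI class, had the largest fall of the 72 genes in these comparisons. Its levels at 96 hours were 7.49, 6.77 and 7.14 in controls, 6.19, 4.92 and 5.40 with T3, 7.04, 6.61 and 6.31 with quetiapine, and 5.72, 4.86 and 5.05 with the combination. Replicate 1 was the highest of each group, and the T3 and combination arrays lay below all controls. The changes were −1.63 ± 0.33 with T3 (adjusted p = 0.01), −0.48 ± 0.33 with quetiapine (adjusted p = 0.476, and 0.0482 with a replicate block) and −1.93 ± 0.33 with the combination (adjusted p = 0.00135), the last a 3.80-fold fall. At 48 hours the changes were −1.07 ± 0.18 with T3 (adjusted p = 0.0202, at most 0.0842 without T3 replicate 2 or 3 or any 1 of the controls) and −1.35 ± 0.18 with the combination (adjusted p = 0.00242).

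Subunits of the BAF (SWI/SNF) complex, which remodels nucleosomes at enhancers and promoters, fell with the combination at 96 hours for 8 of the 9 measured Smarc genes that encode them, and 1 rose. Smarcd3 and Smarcd2, variants that take the same place in the complex, moved in opposite directions. Smarcd3 levels at 96 hours were 9.11, 8.97 and 9.09 in controls, 8.64, 8.26 and 8.18 with T3, 8.24, 8.44 and 8.27 with quetiapine, and 8.12, 7.92 and 7.79 with the combination. No group with a compound overlapped with the controls, and the combination lay below both single compounds. It fell by 0.69 ± 0.12 with T3 (adjusted p = 0.00553), by 0.74 ± 0.12 with quetiapine (adjusted p = 0.00625) and by 1.11 ± 0.12 with the combination (adjusted p = 9.32e-05). Smarcd2 rose with the combination, from 7.09, 6.93 and 6.97 to 7.51, 7.58 and 7.45 (0.52 ± 0.11, adjusted p = 0.00367).

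Smarce1, a core subunit with a DNA-binding domain, fell by 0.37 ± 0.08 with T3 at 96 hours (adjusted p = 0.0163) and by 0.59 ± 0.08 with the combination (adjusted p = 0.000375). The T3 call was lost without T3 replicate 2 or control replicate 3, with an adjusted p of at most 0.0763. Smarca4 (BRG1), the ATPase that Olig2 is known to direct in this lineage, fell by 0.36 ± 0.11 with the combination (adjusted p = 0.0286), a call that was lost with arrays centred on their medians (adjusted p = 0.0561) or without combination replicate 2 or 3 or control replicate 1 or 3 (at most 0.103). Named after their values were seen, the core subunits Smarcc1, Smarcb1 and Smarcc2 fell by 0.64, 0.58 and 0.56, the alternative ATPase Smarca2 by 0.41 and Smarcd1 by 0.29, and the ISWI ATPase Smarca5 (SNF2H) rose by 0.48. Another Smarca5 probe set changed by −0.12, and with the mean of its probe sets the rise was 0.24 (adjusted p = 0.161). Smarcd1 had an adjusted p of 0.0455 and lost its call with arrays centred on their medians (0.0902) or without combination replicate 1 or 2 or control replicate 1 or 3 (at most 0.151). Of 16 further BAF subunits measured, 4 fell and 1 rose with the combination, led by Bcl7c (−1.12, adjusted p = 4.65e-05) and Dpf1, a subunit of postmitotic neural complexes (−1.21, adjusted p = 0.000494), with Bcl7a at 0.69.

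**Figure D4:**
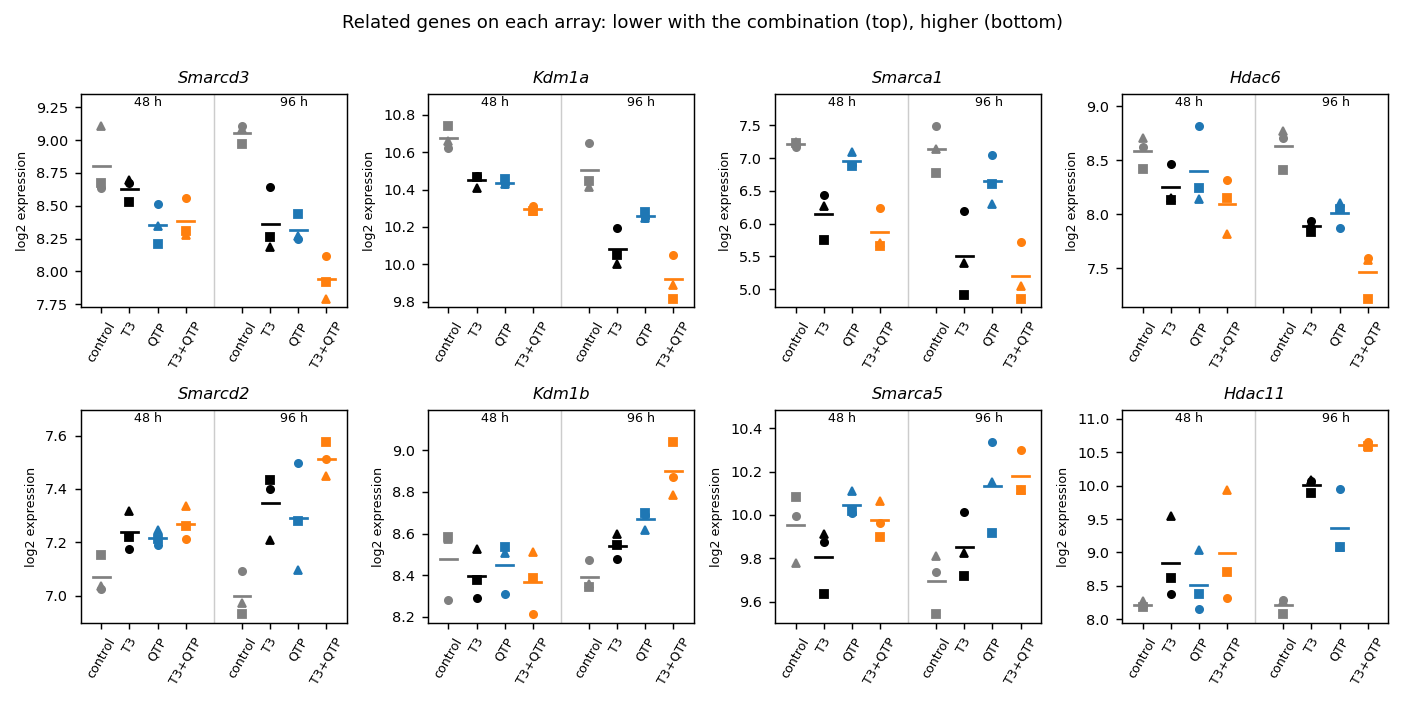
Log2 expression on each array of 4 genes that fell with the combination at 96 hours (top) above 4 relatives that rose (bottom), chosen after their values were seen, with symbols for replicates and bars for means; QTP is quetiapine. Smarcd3 fell by 1.11 where Smarcd2 rose by 0.52, Kdm1a fell by 0.58 where Kdm1b rose by 0.51, and Smarca1 fell by 1.93 where Smarca5 rose by 0.48 on the probe set shown.

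Of the 8 Chd remodellers, 5 fell and 1 rose with the combination at 96 hours. Chd3, an ATPase of the NuRD complex, was the one that rose. At 96 hours its levels were 8.28, 7.57 and 8.04 in controls, 9.01, 8.61 and 8.84 with T3, 7.68, 7.64 and 7.79 with quetiapine, and 8.58, 8.29 and 8.57 with the combination. T3 and combination arrays were above all controls, and T3 above the combination. The changes were 0.86 ± 0.17 with T3 (adjusted p = 0.00793), −0.26 ± 0.17 with quetiapine (adjusted p = 0.436) and 0.52 ± 0.17 with the combination (adjusted p = 0.0359). The last was lost without combination replicate 1 or 3 or control replicate 2 or 3 (adjusted p at most 0.109). At 48 hours Chd3 was at 8.29, 7.87 and 8.09 in controls and at 9.15, 8.74 and 9.15 with T3, apart but with an adjusted p of 0.051 (0.000186 with a replicate block).

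Chd7, which works with Sox10 at oligodendrocyte genes, was lower with T3. Its 96-hour levels were 9.05, 8.97 and 9.14 in controls, 8.52, 8.58 and 8.56 with T3, 9.22, 9.13 and 9.21 with quetiapine, and 8.63, 8.78 and 8.79 with the combination. T3 arrays were below combination arrays and both were below all controls, while quetiapine arrays overlapped with the controls. Chd7 fell by 0.50 ± 0.07 with T3 (adjusted p = 0.0017) and by 0.32 ± 0.07 with the combination (adjusted p = 0.00687), and all 3 of its probe sets fell with the combination. Its relative Chd8 fell by 0.33 ± 0.10 with the combination (adjusted p = 0.0262), a call lost with arrays centred on their medians (0.0562), with the mean of its probe sets (0.1) and without combination replicate 2 or 3 or control replicate 1 or 3 (at most 0.0952). The other Chd genes that fell did so by 0.31 to 0.37.

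Among the Dnmt and Tet genes, Dnmt1 fell and Tet2 rose with the combination at 96 hours. Dnmt1, which copies methylation to new DNA strands, had levels of 9.68, 9.46 and 9.60 in controls, 8.91, 8.57 and 8.87 with T3, 9.33, 9.24 and 9.44 with quetiapine, and 8.88, 8.43 and 8.68 with the combination. Quetiapine arrays lay just below the controls and T3 and combination arrays well below both. Dnmt1 fell by 0.80 ± 0.13 with T3 (adjusted p = 0.00275) and by 0.92 ± 0.13 with the combination (adjusted p = 0.00036), and the quetiapine change of −0.24 did not pass (adjusted p = 0.322). Dnmt3a, which methylates DNA de novo, was at 7.64, 7.84 and 7.94 in controls and at 7.70, 7.96 and 7.80 with the combination, which overlap (0.01 ± 0.10, adjusted p = 0.954).

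Tet1 and Tet2, which oxidise methylated cytosine, each passed the test in 1 comparison with control, and with a replicate block also with T3 at 48 hours. There Tet1 changed by 0.32 (adjusted p = 0.186, and 0.0273 with the block) and Tet2 by 0.27 (adjusted p = 0.184, and 0.0265 with the block), and for both genes the T3 arrays lay above all controls. Tet1 rose with the combination at 48 hours, from 8.16, 8.01 and 8.35 to 8.71, 8.51 and 8.59 (0.43 ± 0.10, adjusted p = 0.03), and its change at 96 hours was 0.01 (adjusted p = 0.969). The call was lost without any 1 of the combination arrays or control replicate 1 or 2 (adjusted p at most 0.0925), and the difference between the times did not pass (−0.42 ± 0.21, adjusted p = 0.286). Tet2 rose by 0.35 ± 0.11 with the combination at 96 hours (adjusted p = 0.0278, at most 0.0997 without combination replicate 3 or control replicate 2 or 3). Tet3 changed by −0.06 ± 0.15 (adjusted p = 0.8). Of 11 partners in DNA methylation and its removal, 4 fell and 3 rose with the combination at 96 hours. Uhrf1, which guides Dnmt1 to newly copied DNA, fell by 2.22 (adjusted p = 0.0112), and Gadd45a and Gadd45b, stress-responsive genes linked to demethylation, rose by 1.33 (adjusted p = 1.5e-05) and 1.79 (adjusted p = 0.00143).

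Quetiapine and T3 were compared directly to ask which chromatin regulators the compounds moved differently. At 96 hours 4 of the 72 genes were higher and 2 lower with quetiapine than with T3 (0.789% and 1.84% of all probe sets), and at 48 hours 2 were higher and 1 lower (0.528% and 1.1%). Of all genes, 1.01% were higher and 2.3% lower at 96 hours, and 0.696% and 1.46% at 48 hours. Under a replicate block there were 15 and 4 at 96 hours (5.54% and 6.11%) and 10 and 4 at 48 hours (4.45% and 5.32%). Without quetiapine replicate 2 or 3 or T3 replicate 3, the totals were 3 at 96 hours and 1 at 48 hours. Chd3 was lower with quetiapine, with differences of −1.19 ± 0.19 (48 hours, adjusted p = 0.0117) and −1.12 ± 0.17 (96 hours, adjusted p = 0.00567). Asxl3 was higher, with differences of 1.10 ± 0.07 (adjusted p = 2.76e-05) and 1.00 ± 0.12 (adjusted p = 0.00187) in the same order. For both genes the quetiapine and T3 arrays were apart at both times. Chd7 exceeded its T3 level by 0.63 ± 0.07 at 96 hours (adjusted p = 0.00117) and Dnmt1 by 0.55 (adjusted p = 0.0459). Kdm2b did so by 0.37 after 48 hours (adjusted p = 0.0338) and by 0.60 after 96 (adjusted p = 0.019). The 96-hour difference of Kdm6b was −0.42 (adjusted p = 0.0238).

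Hdac11, Hdac6, Smarcd3 and Setd3, which passed the test with both compounds at 96 hours, showed no call between them. The differences of quetiapine from T3 were −0.65 ± 0.19 for Hdac11 (adjusted p = 0.111, and 0.0252 with a replicate block), 0.12 ± 0.12 for Hdac6, −0.04 ± 0.12 for Smarcd3 and 0.11 ± 0.07 for Setd3. Of the calls between the compounds, Asxl3 at both times, Chd3 at 96 hours and Chd7 did not depend on any 1 array. Chd3 at 48 hours was lost without quetiapine replicate 2 or 3 or T3 replicate 3 (adjusted p at most 0.0613). Kdm2b was lost without quetiapine replicate 2 or 3 or T3 replicate 2 or 3 at either time, and at 48 hours also without quetiapine replicate 1 (at most 0.151 at 48 and 0.0931 at 96 hours). Dnmt1 and Kdm6b at 96 hours were lost without any of the quetiapine arrays, Dnmt1 also without T3 replicate 2 or 3 and Kdm6b without T3 replicate 1 or 3 (at most 0.195 and 0.0982).

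Adding quetiapine to T3 changed few of these genes, and adding T3 to quetiapine changed more. At 96 hours 1 gene was higher with the combination than with T3 and 0 were lower (1.18% and 0.734% of all probe sets, 1.29% and 1.04% of all genes), and with a replicate block 6 and 4 (5.44% and 6.57% of all probe sets). That gene was Kdm1b, at 8.48, 8.55 and 8.60 with T3 and 8.87, 9.04 and 8.79 with both (0.36 ± 0.08, adjusted p = 0.0497), and leaving out any of these arrays ended the call (at most 0.189). Against quetiapine, the combination was associated with 13 lower and 3 higher genes (3.79% and 3.62% of all probe sets, 4.87% and 4.36% of all genes). Under a replicate block there were 24 and 3 (11.1% and 8.55% of all probe sets). The total of 16 fell to between 6 and 8 without quetiapine replicate 2 or 3 or combination replicate 2 or 3. The largest falls were in Smarca1 (−1.44 ± 0.33, adjusted p = 0.0256), Asxl3 (−0.88 ± 0.12, adjusted p = 0.00248), Kdm2b (−0.80 ± 0.11, adjusted p = 0.00252) and Dnmt1 (−0.67 ± 0.13, adjusted p = 0.0113), and the rises were in Hdac11 (1.25 ± 0.19, adjusted p = 0.00444), Chd3 (0.78 ± 0.17, adjusted p = 0.0185) and Kdm6b (0.36 ± 0.08, adjusted p = 0.0268). Smarca1 lost its call without combination replicate 2 or 3 or quetiapine replicate 1 or 2, Dnmt1 without quetiapine replicate 3, Chd3 without combination replicate 3 or quetiapine replicate 2 or 3, and Kdm6b without combination replicate 2 or 3 or any of the quetiapine arrays (adjusted p at most 0.111, 0.0518, 0.0715 and 0.0799).

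Whether the log2 change with both compounds differed from the sum of the single changes was tested as an interaction at 96 hours. In limma 0 of the 72 genes passed, and 1 had an unadjusted p under 0.05 (0.0322% of all probe sets passed). With a replicate block 0 passed as well (0.242% of all probe sets). The interaction was −0.56 ± 0.27 for Hdac11, 0.18 ± 0.17 for Hdac6, 0.32 ± 0.18 for Smarcd3 and 0.19 ± 0.47 for Smarca1, so the errors leave room for sizeable departures. In the controls, 0 of the 72 genes changed between 48 and 96 hours in limma (9 at an unadjusted p under 0.05, and 0.0226% of all probe sets passed). With a replicate block 1 did (3.21% of all probe sets), Ezh2, which went from 9.75, 9.87 and 9.85 to 9.44, 9.24 and 9.37 (−0.47, adjusted p = 0.193, and 0.0044 with the block).

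Marker genes of dividing cells and of other cell types moved with these changes. The mean of 14 genes of DNA replication and mitosis was 9.43, 9.38 and 9.59 in the 96-hour controls, 8.71, 8.27 and 8.76 with T3, 9.23, 8.61 and 9.26 with quetiapine, and 8.90, 7.37 and 7.93 with the combination. All 14 fell with the combination, 7 with T3 and 0 with quetiapine (1 at an unadjusted p under 0.05). Dnmt1, Ezh2 and the other chromatin regulators that fell with T3 and the combination were thus lower on arrays where replication genes were also lower, and the part of dividing cells in their falls was not tested. The mean of 6 myelin genes lay between 11.48 and 11.91 in the 96-hour controls and between 12.89 and 13.72 on all treated arrays, and all 6 rose with each treatment. The mean of 7 astrocyte markers lay between 11.35 and 11.79 in the controls, 10.96 and 11.73 with T3, 10.40 and 11.34 with quetiapine, and 10.29 and 10.93 with the combination, where 5 fell and 1 rose. Its part in the falls of chromatin regulators was not tested. The microglial mean lay between 5.08 and 5.74 at 96 hours. The neuronal mean was 7.26, 7.09 and 7.40 in the 96-hour controls and lower with quetiapine (6.81, 6.79 and 7.05). With T3 and with the combination it overlapped with the controls. Of 7 neuronal genes, 2 rose and 1 fell with the combination (changes from −1.39 to 1.42), and 1 fell with each single compound. The vascular and fibroblast mean lay between 5.08 and 5.29 in the controls and between 5.01 and 5.07 with the combination. Of its 6 genes, 1 rose and 1 fell with the combination (−1.44 to 0.48). The part of these cells was not tested. The mean of 6 precursor genes was 11.40, 10.99 and 10.82 in the 96-hour controls, 11.02, 10.65 and 10.51 with T3, 11.28, 10.99 and 10.76 with quetiapine, and 11.00, 10.73 and 10.57 with the combination, lower than control in every replicate with T3 and with the combination. The 6 were Pdgfra, Cspg4, Ptprz1, Olig1, Olig2 and the lineage factor Sox10. With the combination the change was above 0 for 3 of them, Olig1, Olig2 and Sox10, and below 0 for the others. The mean of the 6 therefore joins genes that moved in opposite directions. Of the 6 genes, 1 fell and 0 rose with T3, and 1 fell and 1 rose with the combination, or 3 and 0, and 3 and 2, with a replicate block. Pdgfra, the PDGF receptor of precursors, was at 12.70, 12.33 and 12.27 in the controls, 12.36, 11.57 and 11.35 with T3, 12.61, 11.84 and 11.57 with quetiapine, and 12.31, 11.60 and 11.21 with the combination. Its change with the combination was −0.73 (adjusted p = 0.141, and 0.000574 with the block). The part of precursor cells in the falls was not tested. The log2 signal of the 3′ less the 5′ beta-actin control probe set, a measure of RNA integrity, lay between 0.643 and 0.665 in the 96-hour controls, 0.674 and 0.766 with T3, 0.601 and 0.723 with quetiapine, and 0.704 and 0.768 with the combination. The same difference for Gapdh lay between −0.107 and −0.0565 in these controls, −0.0756 and −0.0267 with T3, −0.113 and −0.0726 with quetiapine, and −0.132 and −0.092 with the combination. This 3′ less 5′ difference was thus higher for beta-actin and mostly lower for Gapdh with the combination than in the controls. The part of RNA quality was not tested either.

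**Figure D5:**
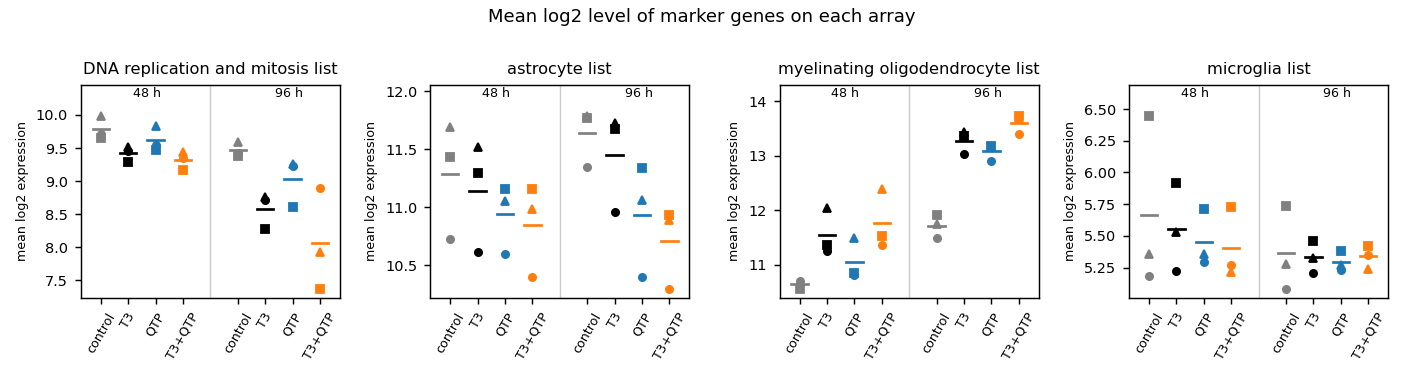
Mean log2 expression on each array of 14 replication and mitosis genes, 7 astrocyte, 6 myelin and 8 microglial genes, with symbols for replicates and bars for means; QTP is quetiapine. At 96 hours the replication mean is lowest on the combination arrays (7.37 to 8.90) and the myelin mean highest (13.39 to 13.72), and the microglial mean of 1 control array at 48 hours (6.44) stands above the rest.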

How the data were processed

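Per the labels and the study's methods, the authors deposited log2 expression values made by RMA (background correction, quantile normalization and probe set summary, version not given in the sources used here) for 24 arrays in 8 groups of 3. Their number limits the precision. Array medians differed by at most 0.0763. Of 31099 probe sets, 57 controls were left out and 31042 tested, 20826 of them with 1 symbol in the array's annotation, which can be old. Groups were compared with limma 3.58.1 (R 4.3.3) within each time (12 arrays, 4 means, no block), and between times on all 24, with Benjamini-Hochberg adjustment over all probe sets. The script was tested on simulated data. Same-numbered arrays, which share a preparation by the series design, deviated together (r from 0.430 to 0.777 at 48 hours and 0.309 to 0.690 at 96 hours). Alternatives, each tried alone, were a replicate block, median centring, no dim probe sets, the mean of a gene's probe sets, a fold limit of 1.5 and leaving out each array. Genes named were the largest called changes of each comparison and genes with known roles in the lineage. Also named were genes of the highest or lowest mean level in their family, called genes of the partner lists, and marker genes. Others are marked as chosen after their values were seen. The genes, lists and rules were chosen with earlier results of these data known. No sequences or coordinates were used.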

Additional observations from a re-analysis of the deposited data

Results flagged for a closer look

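The change with the combination differed between 48 and 96 hours for 9 of the 72 genes, by a test of the difference itself in 1 limma fit over all 24 arrays that was added after the data were seen (6.42% of all probe sets passed). No replicate block or other alternative setting is given for this test, and several of its adjusted p values lie close to 0.05. The signed change was more positive at 96 hours, by a log2 difference of 1.63 ± 0.47 (SE) for Hdac11 (adjusted p = 0.0457), 0.69 for Kdm7a (adjusted p = 0.0435), 0.62 for Kdm1b (adjusted p = 0.0103), 0.59 for Hdac5 (adjusted p = 0.0205) and 0.40 for Setd3 (adjusted p = 0.0202). For Hdac5 this reflects a fall at 48 hours, on its brightest probe set and not on the other, that was not seen at 96 hours. The signed change was more negative at 96 hours, with differences of −0.69 for Smarcd3 (adjusted p = 0.0331), −0.50 for Kdm2b (adjusted p = 0.029), −0.39 for Kdm3a (adjusted p = 0.0383) and −0.37 for Smarce1 (adjusted p = 0.0496). For T3 and for quetiapine the same test gave 0 of 72 genes in limma, with 7 genes each at an unadjusted p under 0.05, where 0.0483% and 0.106% of all probe sets passed, so the 0 is near the share of all probe sets.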

How the results depend on the processing

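With a replicate block, the pairing that the design states, more genes were called: 17 for T3, 3 for quetiapine and 31 for the combination at 48 hours, 33 for T3 and 14 for quetiapine at 96 hours, 14 and 19 for quetiapine against T3 at 48 and 96 hours, 10 for the combination against T3, 27 for it against quetiapine and 1 for control over time. The block ended no call. A fold over 1.5 left 2 (T3), 0 (quetiapine) and 1 (combination) at 48 hours, 9, 3 and 13 at 96 hours, and 0 and 7 for the combination against T3 and against quetiapine. The mean of a gene's probe sets gave 0 for quetiapine at 48 hours and 3 for the combination against T3, where centred arrays gave 2. Leaving out 1 array gave 1 to 3 (T3), 0 to 1 (quetiapine) at 48 hours, 11 to 20 for T3 and 32 to 39 for the combination at 96 hours, 1 to 4 and 3 to 6 for quetiapine against T3 at 48 and 96 hours, and 0 to 1 and 6 to 16 for the combination against T3 and against quetiapine. Of 40 genes called with the combination at 96 hours, 29 kept their call whichever array was left out, 36 with centred arrays and 33 with probe set means. These genes had 35 other probe sets, of which 27 changed in the same direction as the brightest. Of the 35, 11 passed in that direction and 0 in the opposite direction. The cause of the changed calls was not tested. Leaving out 1 array changes both the number of arrays and which arrays remain. Changes near 0 turned sign: Hdac2 with quetiapine at 96 hours (0.0115 with centred arrays, −0.0999 to 0.0396 with 1 array left out), Dnmt3a (−0.109 with probe set means, −0.0725 to 0.0759), Tet3 (0.0117 with probe set means, −0.244 to 0.0432) and Tet1 (−0.172 to 0.145) with the combination, Tet3 with quetiapine (−0.0362 to 0.251), and Hdac1 (−0.0333 to 0.240) and Tet1 (−0.152 to 0.115) with T3.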

Other observations

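Histone acetyltransferases and bromodomain readers, which write and read the marks that deacetylases remove, included 5 lower and 1 higher gene of 14 with the combination at 96 hours (35.7% and 7.14%, against 20% and 15.2% of all genes). Kat2b (PCAF), an acetyltransferase, rose by 1.06 with the combination (adjusted p = 0.000562 in limma) and by 0.85 with T3 (adjusted p = 0.00688). Its relative Kat2a fell by 0.45 with the combination (adjusted p = 0.0114). Ncoa1, a coactivator of nuclear receptors, fell by 0.89 with the combination (adjusted p = 0.0002), by 0.48 with T3 (adjusted p = 0.0198) and by 0.48 with quetiapine (adjusted p = 0.0312).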
